A study of Mus musculus with 3 samples.

Results

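The 41 genes described here are known for their use by the cells that line blood and lymphatic vessels, or for signalling to those cells. They were taken as a fixed list of symbols, chosen with earlier results of these data known. All 41 were found among the 24346 genes of the deposited table. By role, 15 encode surface or secreted proteins of endothelium, 5 receptor tyrosine kinases, 6 transcription factors, 4 proteins of lymphatic vessels, 6 ligands and 5 further receptors. RNA was sequenced from the epididymis of untreated mice, 14 weeks old, whose genotype is given as Ovch2-/-. The tissue was labelled IS-caput, which joins the initial segment, where sperm from the testis enter, with the caput that follows it. There were 3 libraries in 1 group, called replicates 1, 2 and 3, with no control tissue analysed here. Values are therefore levels in tissue labelled as knockout, and differences are between libraries of the same label. Neither separate animals nor pooling of tissue is stated in the labels, so the spread between libraries may be technical.

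Endothelial cells form the inner wall of vessels. Vascular endothelial growth factors bind the receptor kinases KDR, FLT1 and FLT4, and angiopoietins bind TEK, to which TIE1 is related. ETS and SOX transcription factors keep the endothelial program on, and PROX1 gives lymphatic endothelium its identity. The initial segment is known in rodents for a dense bed of capillaries around the duct, many of them fenestrated, that is, with pores closed by thin diaphragms.

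The unit throughout is normalized FPKM, a fragment density per length of transcript and sequenced amount, so levels can be set side by side between genes. Library totals were 729695, 745294 and 814000 FPKM in replicates 1, 2 and 3. The table holds no counts, and absolute depth is unknown. Low values moved in steps. The most frequent ratio was 0.826 for replicate 1 over replicate 2 and 0.707 for replicate 1 over replicate 3. The step was thus smallest in replicate 1. Of the low values compared, 61.1% and 61.8% lay within 0.02 log2 units of this ratio or of its product with a ratio of small whole numbers. What share would lie there without steps was not computed. Ovch2, the targeted gene, stood at 4.50, 80.2 and 77.2 FPKM. The labels do not give the deleted part of the gene, so this value does not check them. The 5 listed genes of the initial segment (Adam28, Rnase10, Cst8, Etv4 and Etv5) summed to 6.45 FPKM in replicate 1, against 4882 and 4348 FPKM in replicates 2 and 3. Replicate 1 thus held little RNA of these 5 genes despite its label. Whether it held less of the segment, or less RNA of these genes within it, cannot be told from these values. Some results are given both with and without replicate 1. Whether the low level of these 5 genes has a part in the differences below was not tested. Bulk RNA cannot tell fewer cells of a type from less RNA per cell.

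Expression of the 41 genes spanned more than 3 powers of 10. A gene is called detected here where it averaged 1 FPKM or more. This held for 30 of the 41 (73.2%), against 13073 of all 24346 genes (53.7%). Of these 30, 25 reached 1 FPKM in each library, against 12141 of the 13073 genes. The other 5 (Icam2, Gpihbp1, Flt1, Tek and Erg) were under 1 FPKM in replicate 1 alone. The median over the 41 genes on the log2(FPKM + 1) scale was 1.21, 2.15 and 1.81 in replicates 1, 2 and 3, against 3.49, 3.55 and 3.53 over all detected genes. In FPKM the members' medians were 1.31, 3.43 and 2.52. Together they took 0.0294%, 0.0559% and 0.0420% of the FPKM total.

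The order of levels was led by Vegfa, the main ligand of KDR, at 66.2 ± 22.9 FPKM (SD, n = 3). It ranked first in every library. Pdpn (40.6 ± 18.2 FPKM), Egfl7 (39.8 ± 1.88 FPKM) and Cd34 (36.8 ± 21.2 FPKM) followed. Next came Vegfb at 17.6 ± 2.40 FPKM and Plvap at 11.3 ± 8.05 FPKM. Of the 40 pairs of neighbours in this order, 1 differed by more than the joint SD of its genes. This pair was Angpt1 (0.221 ± 0.0737 FPKM) over Prox1 (0.0217 ± 0.0227 FPKM). The joint SD takes the genes of a pair as independent. Most members shared their order over the libraries, so it can be too large for such pairs. In 5 of the 40 pairs the order was the same in every library, so the ranks of neighbours are mostly not settled by these data.

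**Figure D1:**
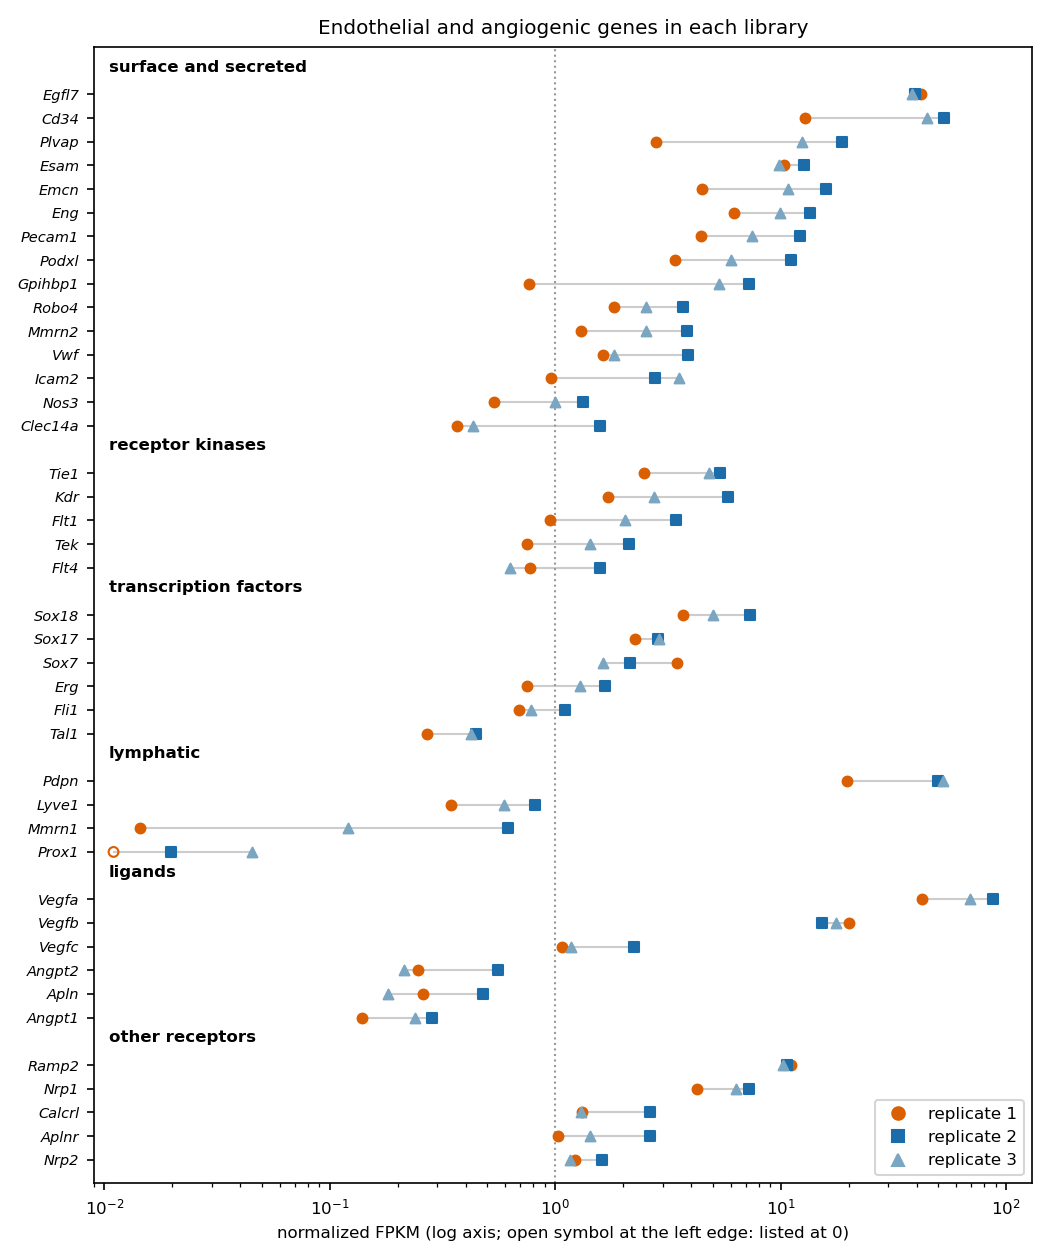
Normalized FPKM of the 41 genes in replicates 1 (circles), 2 (squares) and 3 (triangles), on a log axis, grouped by role and ordered by mean within a role; grey lines join the lowest and highest library, the dotted line marks 1 FPKM, and an open symbol marks a listed 0. Replicate 1 lies at the left end for 31 genes and replicate 2 at the right end for 33, while Egfl7 and Ramp2 show almost no spread.

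Most of these genes were lowest in replicate 1 and highest in replicate 2. Of the 41, 31 were lowest in replicate 1, and so were 23 of the 30 detected ones, against 41.2% of all detected genes. Replicate 2 was highest for 33 of the 41 and for 23 of the 30, against 34.4% of all detected genes. The full order of replicate 2 over replicate 3 over replicate 1 was seen in 27 of the 41 and in 20 of the 30, against 25.2% of all detected genes. Only 4 members were highest in replicate 1 (Egfl7, Sox7, Vegfb and Ramp2), against 38.2% of all detected genes. Without replicate 1 the other libraries still differed in direction: 36 of the 41 were higher in replicate 2 than in replicate 3, against 50.5% of all detected genes.

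Sizes were moderate. Between the highest and lowest library, 13 of the 41 genes lay at least 2-fold apart on the FPKM + 1 scale, all 13 among the 30 detected ones, against 10.8% of all detected genes. Replicate 1 was lower than each of the others by 2-fold or more on that scale for 5 genes (Emcn, Plvap, Cd34, Gpihbp1 and Pdpn), against 4.07% of all detected genes. Between replicates 2 and 3 no member lay 2-fold apart on that scale. The scale damps low genes: with a pseudocount of 0.1 in place of 1, 26 of the 41 lay 2-fold apart over the 3 libraries. The share of all genes with that pseudocount was not computed, so this count has no background beside it. In what follows, 2-fold apart refers to the FPKM + 1 scale unless FPKM alone is named. At the other end, 6 of the 30 stayed under 1.5-fold across the libraries (Egfl7, Esam, Sox17, Vegfb, Nrp2 and Ramp2), against 72.8% of all detected genes. A gene's deviation is its log2(FPKM + 1) minus its own mean over the 3 libraries. The median deviation of the 41 genes was -0.33, 0.40 and 0.01 in replicates 1, 2 and 3, against -0.01, 0.0046 and 0.01 over all detected genes. With a single group no test was possible, so these shares are descriptions of the libraries.

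Among the surface and secreted proteins, Plvap and Gpihbp1 set replicate 1 farthest apart. Plvap, which forms the diaphragms of fenestrae, stood at 2.79, 18.8 and 12.5 FPKM in replicates 1, 2 and 3. Gpihbp1, which carries lipoprotein lipase to the capillary lumen, stood at 0.765, 7.19 and 5.34 FPKM. On the log2(FPKM + 1) scale, replicate 1 minus the mean of replicates 2 and 3 was -2.11 for Plvap and -2.03 for Gpihbp1, the most negative values of the 41. Without replicate 1 the means were 15.6 FPKM for Plvap and 6.27 FPKM for Gpihbp1.

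Next are given the genes of 3 sialomucins of the vessel surface. Cd34, which fibroblast-like stromal cells also carry, stood at 12.8, 53.0 and 44.5 FPKM. Emcn, found on capillaries and veins, stood at 4.49, 15.8 and 10.8 FPKM. Podxl, which is also made by podocytes and some epithelia, stood at 3.41, 11.1 and 6.04 FPKM. Replicate 1 was lowest for each, and the difference from the mean of the other libraries was -1.84 for Cd34, -1.36 for Emcn and -1.06 for Podxl.

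The other surface and secreted genes of endothelium were led by adhesion molecules and receptors. Pecam1, an adhesion molecule of endothelial junctions, stood at 4.43, 12.1 and 7.49 FPKM, and Eng, a co-receptor for TGF-beta family ligands, at 6.18, 13.5 and 9.93 FPKM. Icam2, a ligand for leukocyte integrins, stood at 0.960, 2.76 and 3.54 FPKM and was highest in replicate 3. Mmrn2, a matrix glycoprotein of the vessel wall, stood at 1.30, 3.84 and 2.53 FPKM. On the FPKM + 1 scale these 4 genes were at least 2-fold apart between the highest and lowest library. The next 4 were not on that scale, although their FPKM values themselves spanned more than 2-fold. Vwf, the clotting glycoprotein stored by endothelium, stood at 1.62, 3.90 and 1.81 FPKM. Robo4, a receptor that steadies vessels, stood at 1.83, 3.67 and 2.52 FPKM. Replicates 1 and 3 lay close together for Vwf and apart for Robo4. Clec14a, a lectin that binds MMRN2, stood at 0.368, 1.58 and 0.431 FPKM, and Nos3, the endothelial nitric oxide synthase, at 0.537, 1.33 and 0.99996 FPKM. In the GENCODE M21 annotation, an antisense gene (1040 bases) and Atg9b (294 bases) share exonic bases with Nos3 on the opposite strand. The strand setting of the quantification is not given, so reads of Nos3 and its antisense partners cannot be told apart; the same holds over 148 bases of Cd34, 61 of Eng, 133 of Prox1 and 737 of Angpt1.

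Egfl7 and Esam stood outside this pattern. Egfl7, a matrix-bound factor secreted by endothelium, was at 41.9, 39.2 and 38.3 FPKM, and Esam, a junctional adhesion molecule, at 10.3, 12.7 and 9.81 FPKM. Their coefficients of variation were 4.72% and 14.3%, against 48.3% for Pecam1. Exons of Egfl7 share 64 bases with Agpat2 on the opposite strand, which stood at 24.8, 25.2 and 29.2 FPKM; a second annotated gene shares 264 bases on the same strand and was not used here.

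The receptor kinases of the VEGF and angiopoietin pathways were all highest in replicate 2. Kdr, the main signalling receptor for VEGF-A, stood at 1.71, 5.84 and 2.73 FPKM, and Flt1, which binds VEGF-A, VEGF-B and PlGF, at 0.944, 3.43 and 2.04 FPKM. Both were at least 2-fold apart between the highest and lowest library. Tie1 had the highest mean of the 5, at 2.47, 5.36 and 4.82 FPKM, but Kdr was above it in replicate 2 and the pair did not differ beyond its spread. Tek, the angiopoietin receptor, stood at 0.748, 2.13 and 1.43 FPKM. Flt4, the receptor for VEGF-C and VEGF-D that lymphatic vessels use, stood at 0.769, 1.57 and 0.632 FPKM and was the single receptor kinase with its lowest value in replicate 3. The median deviation of the 5 was -0.54, 0.40 and 0.03 in replicates 1, 2 and 3. For the 15 surface and secreted genes it was -0.56, 0.57 and 0.05.

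The transcription factors differed less. None of the 6 was 2-fold apart on the FPKM + 1 scale, though Sox7 and Erg were in FPKM, and their median deviation was -0.15, 0.13 and 0.01. Sox18 stood at 3.67, 7.29 and 4.996 FPKM, Sox17 at 2.26, 2.85 and 2.90 FPKM, and Sox7 at 3.46, 2.14 and 1.63 FPKM. The 3 encode the SOXF subfamily, which acts in vessel formation, and their orders over the libraries differed: Sox7 was highest in replicate 1, where Sox18 was lowest. Erg, an ETS factor of endothelium, stood at 0.751, 1.66 and 1.29 FPKM, and Fli1, its relative, which blood cells also use, at 0.688, 1.10 and 0.780 FPKM. Tal1, needed for blood and vessel development, stood at 0.270, 0.445 and 0.422 FPKM. Sox17 shares 804 exonic bases with an annotated transcript on the opposite strand, which was not used here.

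Lymphatic genes were low apart from Pdpn. Pdpn, encoding podoplanin, stood at 19.7, 49.8 and 52.4 FPKM. Podoplanin is also found on fibroblasts, mesothelium and some epithelia, so its level does not stand for lymphatic vessels alone. Lyve1, a hyaluronan receptor shared by lymphatic endothelium and some macrophages, stood at 0.346, 0.811 and 0.594 FPKM. Mmrn1, a lymphatic and platelet glycoprotein, stood at 0.0144, 0.614 and 0.121 FPKM. Prox1, the factor that defines lymphatic identity, was listed at 0 in replicate 1 and at 0.0198 and 0.0453 FPKM in replicates 2 and 3. All 4 were lowest in replicate 1, but the values of Lyve1, Mmrn1 and Prox1 lie so low that single fragments can set their order, and a listed 0 can be a failed estimate.

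Of the ligands, Vegfa and Vegfb were abundant and went in opposite directions over the libraries. Vegfa stood at 42.1, 87.6 and 68.9 FPKM, 2.06-fold between the highest and lowest library on the FPKM + 1 scale. Vegfb, a ligand of FLT1, stood at 20.03, 15.2 and 17.6 FPKM. Replicate 1 was thus lowest for Vegfa and highest for Vegfb. Vegfc, the ligand of FLT4, stood at 1.07, 2.23 and 1.17 FPKM. Angpt1, which activates TEK, stood at 0.140, 0.284 and 0.238 FPKM, and Angpt2, which modulates it, at 0.247, 0.557 and 0.212 FPKM. Apln, the peptide ligand of APLNR, stood at 0.260, 0.476 and 0.182 FPKM. These last 3 ligands stayed under 0.6 FPKM in every library.

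The further receptors had no member 2-fold apart on the FPKM + 1 scale, though Aplnr and Calcrl were in FPKM. Nrp1, a co-receptor for VEGF-A and for semaphorins, stood at 4.27, 7.22 and 6.31 FPKM, and Nrp2, a co-receptor of lymphatic vessels and veins, at 1.22, 1.62 and 1.16 FPKM. Aplnr, the apelin receptor, stood at 1.03, 2.64 and 1.43 FPKM. Calcrl, which with RAMP2 forms the adrenomedullin receptor, stood at 1.31, 2.63 and 1.30 FPKM. Ramp2 itself was listed as level at 11.1, 10.6 and 10.3 FPKM, with a coefficient of variation of 4.05%. The listed values of these receptor partners thus did not follow each other. Exons of Ramp2 share 1103 bases with Vps25 on the same strand, and Vps25 stood at 154, 133 and 153 FPKM, so fragments of Ramp2 and Vps25 cannot be told apart with certainty.

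**Figure D2:**
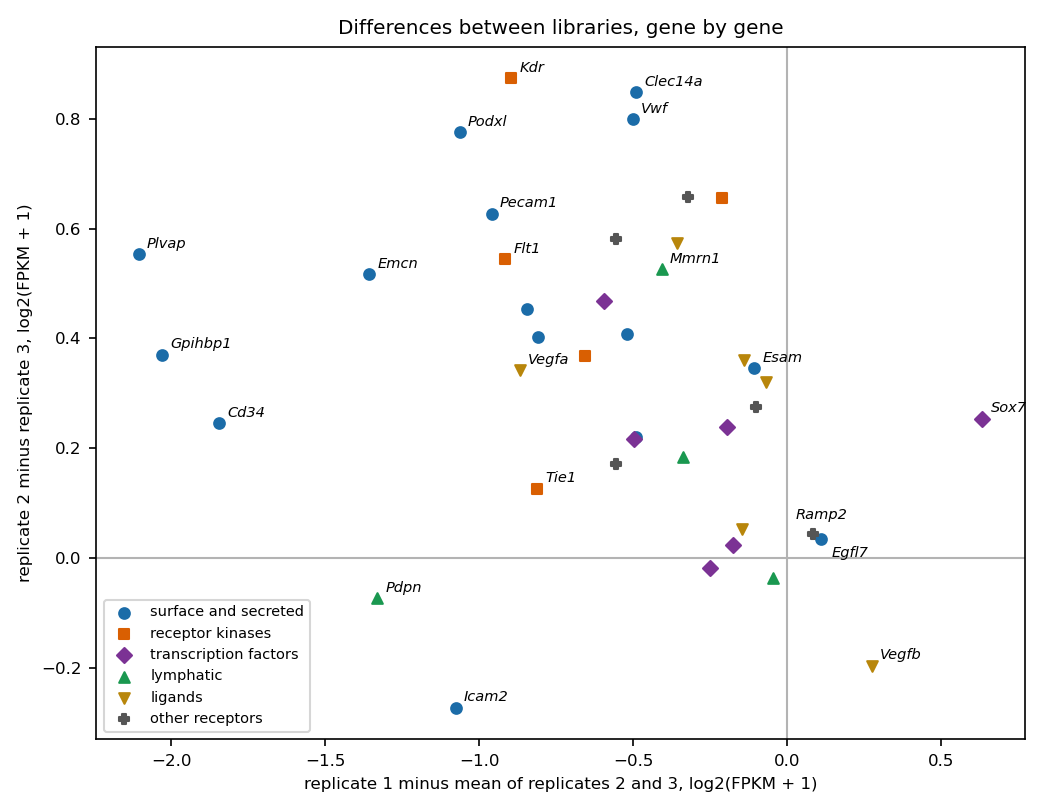
Each point is a gene; the x axis gives replicate 1 minus the mean of replicates 2 and 3 and the y axis replicate 2 minus replicate 3, both on the log2(FPKM + 1) scale, with symbols by role. Plvap (-2.11) and Gpihbp1 (-2.03) lie farthest left and Sox7 (0.64) farthest right, and 36 of the 41 genes lie above the horizontal line.

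Ratios between genes of the same library do not depend on how libraries were scaled to each other. Set against Pecam1, some endothelial genes held a steadier ratio than others. Kdr over Pecam1 was 0.387, 0.482 and 0.365 in replicates 1, 2 and 3, or 0.411 ± 0.0622 (SD, n = 3). Lyve1 over Pecam1 was 0.0781, 0.0669 and 0.0793, and Eng over Pecam1 was 1.40, 1.11 and 1.33. For these pairs the highest library was at most 1.32-fold over the lowest, and for Tie1 over Pecam1 (0.557, 0.442 and 0.644) it was 1.46-fold. Lyve1 was under 1 FPKM in every library, where single fragments can move its ratio. Over Pecam1, Sox18 spanned 1.38-fold, Emcn 1.42-fold, Cdh5 (described below) 1.62-fold, Pdpn 1.70-fold and Sox17 2.17-fold.

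Other ratios set replicate 1 apart from replicates 2 and 3. Plvap over Pecam1 was 0.630 in replicate 1, against 1.55 and 1.67. Gpihbp1 over Pecam1 was 0.173 in replicate 1, against 0.594 and 0.713. Both genes were therefore lower in replicate 1 relative to Pecam1, not only in level. Gpihbp1 stood at 0.765 FPKM in replicate 1, under 1 FPKM, where single fragments can move its ratio. In the other direction, Egfl7 over Pecam1 was 9.46 in replicate 1, against 3.24 and 5.11, and Esam over Pecam1 was 2.33, against 1.05 and 1.31. Sox7 over Sox18 was 0.943, against 0.293 and 0.326. Cd34 over Pecam1 was 2.89, 4.37 and 5.95, with each library apart from the others. Between ligands and receptors, Vegfa over Kdr was 24.6, 15.0 and 25.2, lowest in replicate 2, and Vegfa over Vegfb was 2.103, 5.76 and 3.92. Flt1 over Kdr (0.551, 0.587 and 0.745) and Tie1 over Tek (3.30, 2.51 and 3.38) varied less, by 1.35-fold for each pair.

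**Figure D3:**
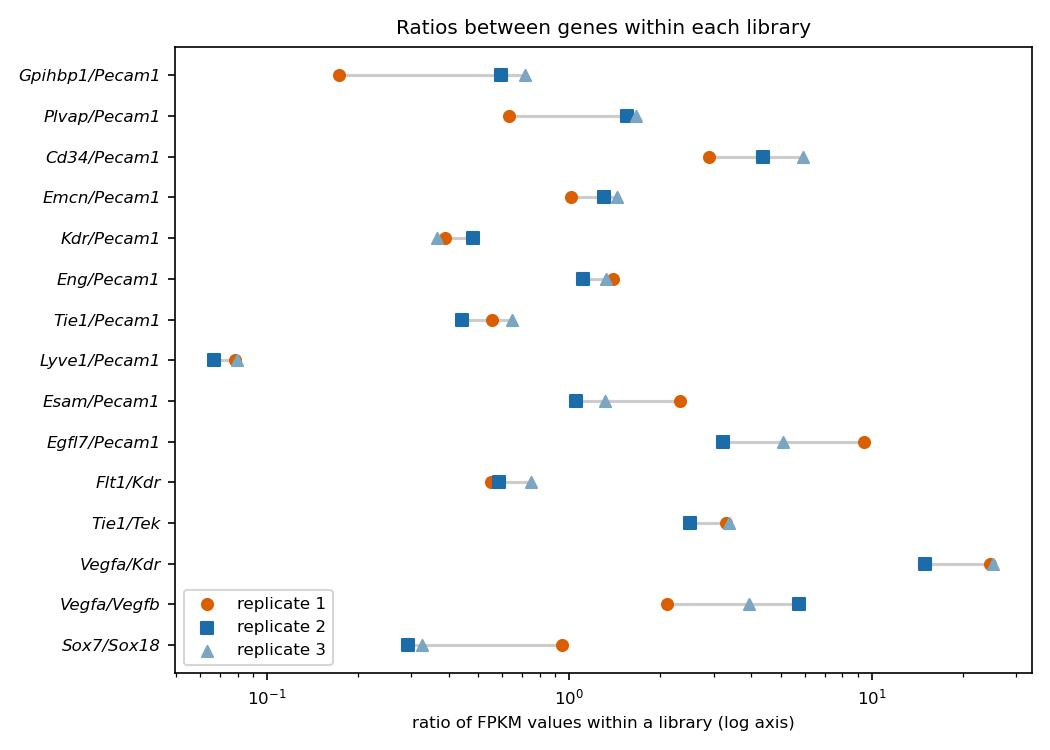
Ratios of FPKM values between pairs of genes within replicates 1 (circles), 2 (squares) and 3 (triangles), on a log axis. Kdr, Eng and Lyve1 over Pecam1 stay within 1.32-fold across libraries, whereas Gpihbp1 over Pecam1 spans 4.13-fold and Egfl7 over Pecam1 2.92-fold. Lyve1 was under 1 FPKM in every library and Gpihbp1 in replicate 1.

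Sequence around the start sites was read for the members in the RefSeq table (build GRCm38.p6, the coordinates of mm10). Of the 41 genes, 23 were matched, with 30 start sites. The 250 bases before each start were searched on both strands for AGGAAG, a form of the core that ETS factors such as ERG and FLI1 bind, or the related hexamer CGGAAG. These letters stood in 12 of 30 windows (40%), against 39.2% of 32851 windows over all genes, a share near that of all genes. A core of SOX sites, AACAAT, stood in 5 of 30 windows (16.7%), against 9.42% over all genes. For GATA factors the letters AGATAA stood in 3 of 30 windows (10%), against 9.99% over all genes. Copies of the ETS letters can share bases with each other, and the end of the GATA letters with the start of the SOX letters. The windows below contrast Emcn and Cd34, lower by 2-fold or more in replicate 1 than in either other library, with level Egfl7. All the windows shown hold the ETS letters. For Egfl7 the first start, shown here, has 3 copies, the second 1 and the third 0. They are written 5′ to 3′ on the gene's strand, with the ETS letters of either strand in capitals. The Emcn window is chr3:137340828-137341077, that of Cd34 chr1:194938571-194938820 and that of Egfl7, the first of its 3 starts, chr2:26580833-26581082, all on the plus strand.
Emcn: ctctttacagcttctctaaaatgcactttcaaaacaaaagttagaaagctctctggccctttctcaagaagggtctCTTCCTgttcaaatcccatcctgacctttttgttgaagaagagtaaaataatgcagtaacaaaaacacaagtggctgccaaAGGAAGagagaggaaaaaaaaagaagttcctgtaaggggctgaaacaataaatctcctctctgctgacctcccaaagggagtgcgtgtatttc
Cd34: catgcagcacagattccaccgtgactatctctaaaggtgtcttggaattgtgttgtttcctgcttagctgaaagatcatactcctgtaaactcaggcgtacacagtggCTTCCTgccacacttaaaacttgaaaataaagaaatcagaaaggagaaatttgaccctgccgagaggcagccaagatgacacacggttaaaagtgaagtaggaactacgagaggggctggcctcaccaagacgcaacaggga
Egfl7: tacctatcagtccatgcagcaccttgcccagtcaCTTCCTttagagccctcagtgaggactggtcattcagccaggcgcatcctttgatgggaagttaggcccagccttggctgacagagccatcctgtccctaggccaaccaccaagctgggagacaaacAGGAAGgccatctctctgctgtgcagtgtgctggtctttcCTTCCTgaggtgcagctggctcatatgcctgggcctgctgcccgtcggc

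Egfl7 also hosts the endothelial microRNA miR-126, whose mature strand lies at chr2:26591402-26591423 on the plus strand of GRCm38.p6. Mir126a and Mir126b were listed at 0 in every library, and libraries of long mRNA are not a measure of mature microRNA. The mature strand, from RefSeq, is shown because it is the endothelial product of the Egfl7 locus that these values do not cover; its seed, bases 2 to 8, is in capitals.
mmu-miR-126a-3p: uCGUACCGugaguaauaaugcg

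Further genes of the same pathways were taken from 6 lists, 58 genes in all, each found in the table, of which Vegfd stands under its older symbol Figf. Of the 58, 29 were lowest in replicate 1, 35 highest in replicate 2 and 16 highest in replicate 1, against 41.2%, 34.4% and 38.2% of all detected genes. At least 2-fold apart between libraries were 5 of the 58, against 10.8% of all detected genes, which is no excess. Of the 17 further endothelial identity genes, 13 were lowest in replicate 1 and 13 highest in replicate 2. None was 2-fold apart on the FPKM + 1 scale, though lower genes such as Ptprb (0.723, 2.37 and 1.39 FPKM) and Myct1 were in FPKM. The median deviation of the list was -0.35, 0.27 and 0.04. Aqp1, a water channel with the highest mean of this list, stood at 18.5, 33.5 and 21.9 FPKM, and Myct1, the lowest, at 0.546, 1.36 and 1.07 FPKM. Cdh5, the cadherin of endothelial junctions, stood at 3.73, 6.32 and 4.004 FPKM and Cldn5, the claudin of endothelial tight junctions, at 7.41, 12.3 and 10.1 FPKM; this pair was chosen after its values were seen.

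Arterial and Notch genes were divided. Of 10, 5 were lowest and 3 highest in replicate 1, and the median deviation was -0.13, 0.12 and -0.08. Hey2, a Notch target of arteries, stood at 0.988, 3.38 and 2.76 FPKM and was the single gene of this list 2-fold apart. Notch1, the highest, stood at 25.6, 20.4 and 17.7 FPKM and is not specific to endothelium, and Gja5, a connexin of arteries and the lowest, at 0.306, 0.8003 and 0.580 FPKM. Of the 7 venous and activation genes, 4 were lowest in replicate 1 and none was 2-fold apart on the FPKM + 1 scale, with a median deviation of -0.07, 0.12 and 0.0021. Nr2f2, the venous factor, which stroma also expresses, stood at 13.8, 9.47 and 10.6 FPKM, and Sele, the selectin of inflamed endothelium, was listed at 0 in replicate 1 with 0.0863 and 0.0659 FPKM in replicates 2 and 3. Of the 8 further lymphatic genes, 4 were lowest in replicate 1, and the median deviation was -0.12, 0.15 and -0.03. Ccl21a, a chemokine of lymphatic endothelium, stood at 0.912, 12.7 and 2.13 FPKM and was alone in being 2-fold apart, Vegfd was the highest at 4.90, 8.92 and 7.87 FPKM, and Foxc2 the lowest at 0.0507, 0.0618 and 0.0354 FPKM. Replicate 2 was thus high for Ccl21a, as for Mmrn1, while replicates 1 and 3 were lower. Ccl21a has near-identical copies in the mouse, between which reads may be shared.

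Among 8 further ligands none was lowest in replicate 1, and 4 were highest there, with a median deviation of 0.11, -0.01 and -0.16. Pgf, encoding PlGF, a ligand of FLT1, stood at 93.5, 27.4 and 41.4 FPKM, 3.33-fold between the highest and lowest library. Pgf over Vegfa was 2.22, 0.312 and 0.601, so replicate 1 held more Pgf than Vegfa RNA per length and the other libraries less. Sema3a stood at 0.0205 and 0.0500 FPKM in replicates 1 and 2 and was listed at 0 in replicate 3, and Apela was listed at 0 in every library. Genes known to be raised by low oxygen, as Vegfa is, gave no shared direction. Of these 8, 5 were highest and 3 lowest in replicate 1, and the median deviation was 0.19, -0.13 and -0.03. Ldha, the highest, stood at 169, 96.1 and 100.5 FPKM, and Hk2, at 16.3, 39.5 and 29.8 FPKM, and Egln3, the lowest, at 1.60, 13.5 and 11.9 FPKM, were at least 2-fold apart.

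Markers of other cells in the tissue moved in different directions between libraries, and their part in the results above was not tested. All 5 smooth muscle genes were highest in replicate 1, summing to 673, 440.0 and 397 FPKM, with Acta2 highest at 306, 193 and 178 FPKM and Des lowest at 48.3, 33.7 and 30.5 FPKM. Pecam1 over Myh11 was 0.0566, 0.227 and 0.165. Of 6 pericyte genes, which mark the cells wrapped around capillaries, 4 were highest in replicate 1, and the sums were 24.9, 25.4 and 21.4 FPKM. Rgs5, a pericyte gene, alone was 2-fold apart at 1.48, 6.33 and 3.23 FPKM, with Notch3 highest at 10.3, 7.92 and 7.10 FPKM and Abcc9 lowest at 1.47, 1.12 and 1.12 FPKM. Rgs5 and Pdgfrb (4.74, 5.46 and 5.27 FPKM) were lowest in replicate 1 and highest in replicate 2, and the other 4 were highest in replicate 1.

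Fibroblast and macrophage markers each held genes with the order of the members. The 5 fibroblast genes summed to 172, 218 and 196 FPKM, and 3 were lowest in replicate 1. Pdgfra, a receptor of fibroblasts, stood at 15.3, 43.4 and 32.9 FPKM, Dcn was the highest at 97.5, 103 and 108 FPKM, and Lum the lowest at 1.23, 3.09 and 1.53 FPKM. Cd34 over Pdgfra was 0.839, 1.22 and 1.35. The 5 macrophage genes summed to 55.2, 88.0 and 91.2 FPKM, with 4 lowest in replicate 1 and a median deviation of -0.45, 0.25 and 0.21, of a size like that of the members. Lyz2, a lysozyme, stood at 22.7, 48.8 and 55.2 FPKM and was 2-fold apart, and Adgre1 was the lowest at 1.91, 3.76 and 3.22 FPKM.

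Globin and platelet genes were not ordered over the libraries as most members were. Hba-a1, an alpha-globin gene, stood at 8.46, 31.5 and 119 FPKM and Alas2, an enzyme of red cell haem synthesis, at 0.962, 0.541 and 2.27 FPKM, both highest in replicate 3, and the 4 erythrocyte genes summed to 9.46, 32.1 and 121 FPKM. Hbb-bs, the lowest at 0.00539, 0.00507 and 0.00508 FPKM, and Hba-a2 are, like Hba-a1, near-identical to other globin copies, between which reads may be split. The 5 platelet genes summed to 16.6, 9.90 and 14.1 FPKM; Itga2b, the highest, stood at 8.92, 5.56 and 7.44 FPKM, Ppbp was listed at 0 in replicates 1 and 2 with 0.103 FPKM in replicate 3, and Gp9 was listed at 0 in replicate 2 with 0.320 and 0.298 FPKM in replicates 1 and 3. The platelet sum was lowest in replicate 2, where most endothelial genes were highest. Itga2b and Pf4 (6.81, 4.16 and 5.95 FPKM) made up most of that sum. Ppbp, Gp9 and Gp1bb stayed under 1 FPKM in every library, so the sum is a weak measure of platelets. The 5 lymphocyte genes summed to 2.31, 4.57 and 4.13 FPKM, with Cd2 highest at 0.684, 1.59 and 1.53 FPKM.

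General epithelial genes were closer between libraries, unlike the initial segment genes given at the end of this paragraph. The 4 epithelial genes summed to 890, 931 and 1049 FPKM, from Krt18 at 386, 404 and 456 FPKM to Cdh1 at 41.8, 56.8 and 51.8 FPKM. The 3 basal cell genes summed to 161, 118 and 125 FPKM, from Krt5 at 84.8, 48.8 and 52.9 FPKM to Trp63 at 12.7, 16.9 and 14.5 FPKM. Mesothelial genes, whose cells share Pdpn, summed to 0.248, 0.488 and 0.576 FPKM; Msln was the highest at 0.0335, 0.327 and 0.514 FPKM, and Upk3b and Lrrn4 were listed at 0 in replicates 2 and 3 with 0.0699 and 0.0780 FPKM in replicate 1. All 4 mesothelial markers stayed under 1 FPKM in every library; their part in the level of Pdpn was not tested. Germ cell genes summed to 0.301, 139 and 201 FPKM, with Prm1, Prm2 and Odf1 listed at 0 in replicate 1. In replicates 2 and 3, Prm2 was the highest at 73.4 and 117 FPKM and Tnp1, at 0.301, 10.3 and 21.001 FPKM over all libraries, the lowest. Rnase10, the highest of the initial segment genes, stood at 2.58, 3077 and 2708 FPKM, and Etv4, the lowest, at 0.960, 75.9 and 66.1 FPKM.

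**Figure D4:**
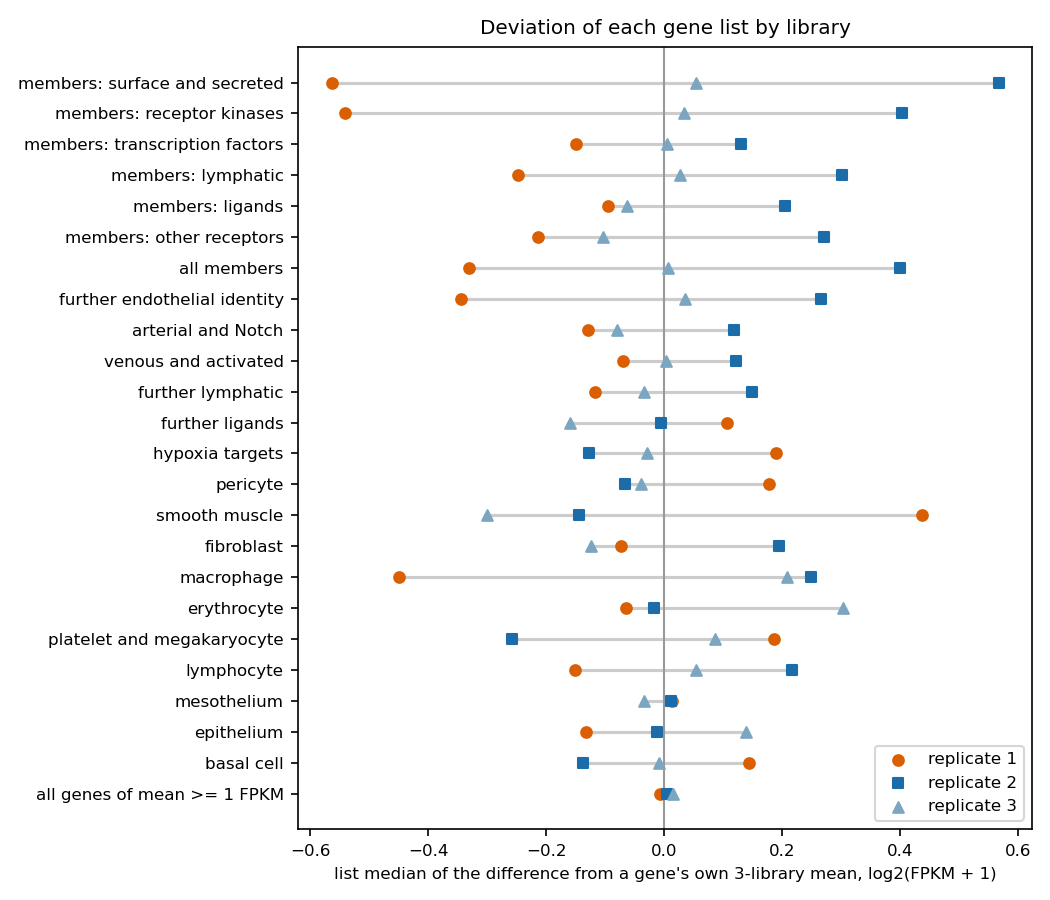
Median, over the genes of each list, of the difference from a gene's own mean over the 3 libraries, on the log2(FPKM + 1) scale, in replicates 1 (circles), 2 (squares) and 3 (triangles). All 6 role groups of members lie below 0 in replicate 1 and above 0 in replicate 2, smooth muscle genes lie at 0.44 in replicate 1, and all detected genes lie near 0; the initial segment (-5.70 in replicate 1) and germ cell lists (-3.24) lie off the scale and are not drawn.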

How the data were processed

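RNA was extracted with TRIzol and stranded libraries of poly(A) RNA were made, per the labels' protocols. The deposited table holds normalized FPKM values per gene and library, per the file headers. The submitters' processing notes name TopHat2 2.1.1, Cufflinks 2.2.1 and mm10. Annotation, strand setting, filters and kind of normalization: not given in the sources used here.

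Columns were assigned to samples by name. Values were analysed as log2(FPKM + 1); folds on this scale understate those of low genes. Because the labels give 1 group, no test was made; spread between libraries may be technical. All detected genes (mean of 1 FPKM or more) served as background. Gene identifiers were matched to RefSeq GRCm38.p6 for coordinates and promoters, and exon overlaps were read from GENCODE M21.

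The members and lists were chosen with earlier results of these data known. The 41 members were named, and from each of 6 pathway and 12 marker lists the genes of highest and lowest mean, those listed at 0 in some libraries, and those 2-fold apart and detected. Of the list genes, Hbb-bt was not analysed here. A gene of the lymphocyte list that this rule names is not reported here. Summaries were tested on simulated data, with changes placed only in genes of higher level than most members. How the calls behave at low levels was not tested. The alternatives tried were scaling by median of ratios or to equal totals, a pseudocount of 0.1, thresholds of 0.5 and 5 FPKM, a fold of 1.5, detected members alone, and the omission of 1 replicate at a time. Python 3.11.15, numpy 2.4.6, pandas 2.3.3 and matplotlib 3.10.9 were used.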

Additional observations from a re-analysis of the deposited data

How the results depend on the processing

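The median deviation of the 41 genes kept its sign in replicates 1 and 2 under every alternative run (12 values); in replicate 3, near 0, it changed sign under 3 of 6 (-0.0024 with median-of-ratios scaling, -0.08 with equal totals, -0.17 without replicate 1). With a threshold of 5 FPKM, 14 members counted as detected. The median level in replicate 1 was 0.49 with a pseudocount of 0.1, and the medians were 1.86, 2.90 and 2.56 over the 30 detected members, as low genes left the list. Members 2-fold apart numbered 26 with a pseudocount of 0.1 and 28 at 1.5-fold, and between 0 (without replicate 1) and 12 with a replicate left out, with 6 without replicate 2. Those below both others in replicate 1 numbered 13 at 1.5-fold and 6 to 12 with a replicate left out. Members highest in replicate 1 numbered 4 to 10 with a replicate left out. Fewer libraries to compare make some of these counts larger by construction. Of all detected genes, 72.8% stayed under 1.5-fold across the 3 libraries. For the other counts under alternatives no share over all genes was computed. Of 321 list deviations under alternatives, 27 changed sign. A single library moved some means by over 1.5 times: without replicate 2, Clec14a averaged 0.400 FPKM (0.793 with it), Kdr 2.22 (3.43) and Mmrn1 0.0675 (0.250); without replicate 3, Prox1 averaged 0.0099 (0.0217), and 0.0325 without replicate 1. Without replicate 1, Pgf over Vegfa was 0.457 (1.04) and Sox7 over Sox18 0.310 (0.521). No paired analysis was possible because the labels give 1 group. Depth limits genes under 1 FPKM, where absolute fragment numbers are unknown.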
